A study of Mus musculus with 4 samples.

Results

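Pulmonary surfactant and the alveolar type 2 (AT2) cells that make it were followed through 10 genes, Sftpa1, Sftpb, Sftpc, Sftpd, Lamp3, Abca3, Napsa, Slc34a2, Cxcl15 and Lyz1, chosen by gene symbol from the 56748 genes of the deposited count table. The choice was made with earlier results of these data known, so shares over all genes printed beside counts of the 10 are descriptive only. All 10 were present, each as 1 row, and all 10 passed the filter on low counts. The libraries came from female BALB/cJ mice that received luciferase-marked 4T1 cells, a mouse triple-negative breast cancer (TNBC) line, through the tail vein at 7 weeks of age. In the control group (2 libraries) the mice were given saline, which another field of the sample labels calls PBS. In the cmLumiOpto/PARPi group (2 libraries) they were given the CD276 antibody-coated exosome-AAV vector for cmLumiOpto, a light-gated channel placed in the mitochondria, together with ViviRen, the substrate that makes its luciferase glow, and olaparib, a PARP inhibitor. Treatment began once metastases were seen by imaging, and the tumour load of the sequenced lungs is not analysed here. Libraries of the vector or of olaparib as single treatments were not analysed here, so the agents cannot be told apart. The methods describe the material as dissociated lung with metastases, while the labels describe tumour cells taken from the lung. Read counts per library ranged from 15263375 to 16755228. Levels are given as CPM, counts scaled to library size with TMM factors, and 3 counts corresponded to 0.173 to 0.204 CPM. That floor, like the intervals on shares given here, covers counting error only.

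AT2 cells are the cuboidal epithelial cells of the alveolus. They store surfactant, a film of phospholipid and protein that lowers surface tension, in lamellar bodies and release it into the airspace, and they also serve as progenitors of the flat alveolar type 1 (AT1) cells that carry out gas exchange. Surfactant proteins B and C are small hydrophobic proteins that spread the lipid film, whereas surfactant proteins A and D are collagen-like lectins of innate defence. Surfactant proteins are not typical products of breast cancer cells. In bulk RNA, a difference in the proportion of AT2 cells in the sample and a difference in RNA per AT2 cell cannot be told apart.

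Surfactant and AT2 transcripts were more abundant in the cmLumiOpto/PARPi libraries than in the saline libraries, with 9 of the 10 genes at a higher group mean after treatment, but no gene passed an adjusted p of 0.05. Together the 10 genes took 0.183% of all counts in saline replicate 1 (95% Wilson interval 0.181 to 0.185%) and 0.0470% in saline replicate 2 (0.0459 to 0.0481%). They took 0.943% in cmLumiOpto/PARPi replicate 1 (0.938 to 0.947%) and 0.314% in replicate 2 (0.311 to 0.316%). Libraries of 1 group thus differed several-fold, saline replicate 2 being the lowest of the 4 and cmLumiOpto/PARPi replicate 1 the highest. In 8 genes the 2 groups did not overlap and treatment was higher, against 27.4% of the 15167 genes tested, and in 1 gene (Abca3) treatment was lower without overlap, against 27.8%. In those 8 genes the lower treated library was 1.24 to 2.05 times the higher saline library.

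**Figure D1:**
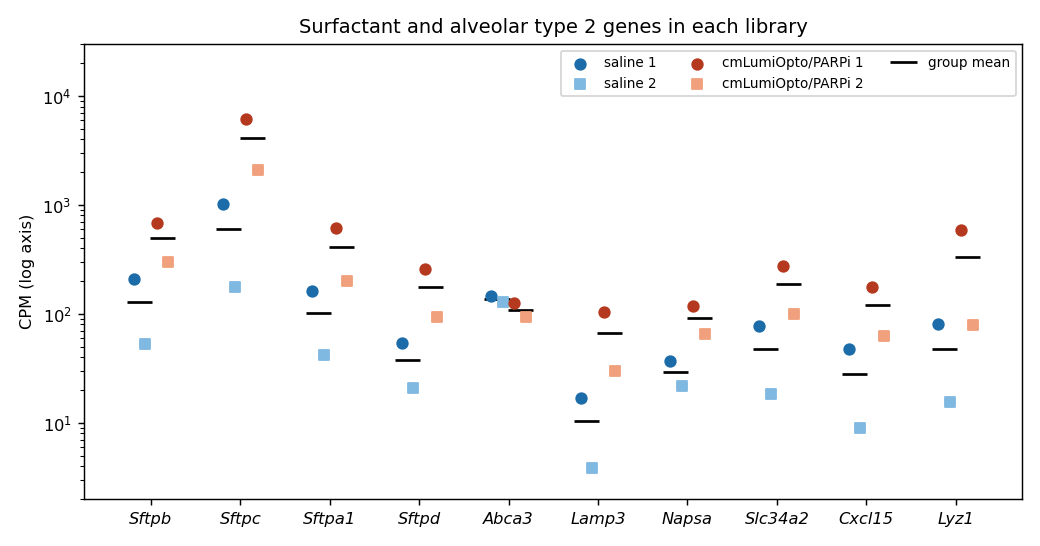
Level of the 10 genes in each library, in CPM on a log axis, with saline in blue, cmLumiOpto/PARPi in red and orange, and black lines for the group means (n = 2). Apart from Abca3 and Lyz1, every gene has its 2 treated points above its 2 saline points, and saline replicate 2 is the lowest of the 4 libraries for every gene but Abca3.

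Sftpc encodes surfactant protein C, whose transcript is largely restricted to AT2 cells. The gene (ENSMUSG00000022097) lies on chromosome 14 from 70520949 to 70524081 (GRCm38, minus strand). Its level was 1019.9 and 176 CPM in the saline libraries and 6153 and 2092 CPM in the cmLumiOpto/PARPi libraries. Both treated libraries exceeded both saline libraries, while the 2 saline libraries themselves differed 5.79-fold and the 2 treated libraries 2.94-fold. The group means were 598 ± 597 CPM (SD, n = 2) and 4122 ± 2872 CPM (SD, n = 2), a 6.89-fold difference. On the log2 scale edgeR fitted a difference of 2.79 ± 0.91 (SE), with an adjusted p of 0.183.

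Sftpb encodes surfactant protein B, without which lamellar bodies do not form properly, and is made by AT2 cells and by club cells of the small airways. It (ENSMUSG00000056370) lies on chromosome 6 from 72304610 to 72314371. Its level was 207 and 52.4 CPM after saline and 685 and 302 CPM after cmLumiOpto/PARPi. The groups did not overlap, although the 3.80-fold difference between their means was smaller than the 3.95-fold difference between the 2 saline libraries. EdgeR gave a log2 difference of 1.93 ± 0.69 (SE) with an adjusted p of 0.204.

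The collectins gave the same picture. Sftpa1, the surfactant protein A gene (ENSMUSG00000021789, chromosome 14 from 41131782 to 41136452), had 160 and 41.8 CPM after saline and 615 and 198 CPM after cmLumiOpto/PARPi. Its lower treated library was only 1.24 times its higher saline library, the smallest gap among the 8 genes without overlap. Sftpa1 thus had a fitted log2 fold change of 2.01 ± 0.76 (SE), and its adjusted p was 0.217. Sftpd, the surfactant protein D gene (ENSMUSG00000021795), lies close by on chromosome 14 from 41172214 to 41185149. Its level was 54.0 and 20.7 CPM after saline and 256 and 93.2 CPM after treatment. Its replicates were closer, 2.61-fold apart after saline and 2.75-fold after treatment, against 4.67-fold between group means. For Sftpd the fit gave 2.22 ± 0.61 (SE) on the log2 scale and an adjusted p of 0.156.

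Because the surfactant protein genes varied together over the libraries, the 250 bases before their RefSeq start sites (GRCm38.p6) were searched on both strands for CTCAAG, a form of the sequence bound by NKX2-1, the lung transcription factor that activates surfactant protein genes. RefSeq promoters were matched for 7 of the 10 genes (Slc34a2, Cxcl15, Sftpb, Lyz1, Sftpa1, Lamp3 and Abca3). The motif was present in 2 of these 7, Sftpb and Sftpa1, and in 13.3% of all 32851 promoter windows of the same length. A match describes the letters alone and is no evidence of binding. Both windows are shown because they hold the motif, which stands in capitals, written from 5′ to 3′ on the gene's strand (plus for both). That of Sftpb is chr6:72304360-72304609, with matches that begin 100 and 15 bases before the start, and that of Sftpa1 is chr14:41131538-41131787, with 1 match that begins 166 bases before it.
Sftpb: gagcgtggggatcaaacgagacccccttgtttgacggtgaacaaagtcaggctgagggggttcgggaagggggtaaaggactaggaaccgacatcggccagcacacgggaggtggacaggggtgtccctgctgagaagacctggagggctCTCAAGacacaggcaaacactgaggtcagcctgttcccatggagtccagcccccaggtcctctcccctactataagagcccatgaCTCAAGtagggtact
Sftpa1: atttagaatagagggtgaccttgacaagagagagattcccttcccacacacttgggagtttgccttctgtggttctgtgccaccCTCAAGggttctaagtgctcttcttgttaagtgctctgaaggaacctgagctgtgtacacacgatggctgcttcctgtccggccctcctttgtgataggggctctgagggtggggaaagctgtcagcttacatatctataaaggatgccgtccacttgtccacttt

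The 3 genes of the lamellar body and of surfactant processing did not vary alike. Lamp3 encodes a glycoprotein of the lamellar body membrane (ENSMUSG00000041247, chromosome 16 from 19653378 to 19706375), and its level was 17.1 and 3.82 CPM after saline and 103 and 30.02 CPM after cmLumiOpto/PARPi. Its group means differed 6.37-fold, or by 2.66 ± 0.83 (SE) on the fitted log2 scale, at an adjusted p of 0.176. Of its transcript's 50-base words, 5.11% also occur in transcripts of other genes, Ppid foremost, so a small part of its reads could be shared. Napsa encodes napsin A, the aspartic protease that trims the surfactant protein B precursor (ENSMUSG00000002204, chromosome 7 from 44572380 to 44586862). Its level was 36.9 and 21.7 CPM after saline and 118 and 64.6 CPM after treatment. Its replicates were the closest among the 9 genes with higher means, 1.70-fold and 1.83-fold apart, against 3.12-fold between groups. For Napsa the fitted log2 difference was 1.64 ± 0.37 (SE) with an adjusted p of 0.138. That was also the smallest adjusted p of any gene tested, but many genes shared it, and Napsa stood only at rank 523 by unadjusted p. An exon of the antisense gene Gm15396 overlaps Napsa, and the strand setting of the counting is not given in the sources used here, so reads of this pair cannot be told apart.

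Abca3, the transporter that loads phospholipid into lamellar bodies, was the exception (ENSMUSG00000024130, chromosome 17 from 24351950 to 24410201). Its level was 147 and 129 CPM after saline and 125 and 94.0 CPM after cmLumiOpto/PARPi. Both treated libraries lay below both saline libraries, by a margin smaller than the spread within the treated group (1.33-fold between its libraries, against a ratio of group means of 0.793). Its fitted log2 fold change was -0.33 ± 0.18 (SE), with an adjusted p of 0.331. Saline replicate 2, which held the lowest level of each of the other 9 genes, held more Abca3 than either treated library. Which cells of the tissue the Abca3 transcripts came from was not tested. Abca3 overlaps an exon of the antisense gene D330041H03Rik and shares 1.67% of its 50-base words with other genes, mostly Abca17.

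Slc34a2, Cxcl15 and Lyz1 are AT2 products outside the surfactant film. Slc34a2, the sodium-phosphate cotransporter that recovers phosphate from the alveolar fluid (ENSMUSG00000029188, chromosome 5 from 53038081 to 53071664), had 76.8 and 18.3 CPM after saline and 272 and 99.8 CPM after cmLumiOpto/PARPi. Its log2 difference was 1.97 ± 0.75 (SE), at an adjusted p of 0.217. Cxcl15 encodes lungkine, a chemokine of lung epithelium that attracts neutrophils (ENSMUSG00000029375, chromosome 5 from 90794534 to 90803067). Its level was 47.6 and 8.99 CPM after saline and 178 and 63.0 CPM after treatment, a log2 difference of 2.09 ± 0.82 (SE) at an adjusted p of 0.228. In both genes the groups did not overlap, but the 2 saline libraries differed by more (4.19-fold and 5.29-fold) than the group means did (3.91-fold and 4.25-fold).

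Lyz1 encodes lysozyme P, an antibacterial enzyme of Paneth cells and of distal lung epithelium (ENSMUSG00000069515, chromosome 10 from 117287797 to 117292868). Its level was 80.4 and 15.6 CPM after saline and 588 and 78.6 CPM after cmLumiOpto/PARPi. Here the groups overlapped, since treated replicate 2 lay just below saline replicate 1, and treated replicate 1 alone set the high group mean. Across the 4 libraries the log2 fold change was 2.79 ± 1.10 (SE), at an adjusted p of 0.229. Without cmLumiOpto/PARPi replicate 1 it was 0.71 (adjusted p = 0.758). Its neighbour Lyz2 (chromosome 10 from 117277331 to 117282321), the lysozyme of macrophages and AT2 cells, was far more abundant, with 1693 and 1141 CPM after saline and 3619 and 2441 CPM after treatment. Lyz1 held 4.53% (95% Wilson interval 4.30 to 4.78%) and 1.35% (1.19 to 1.53%) of the counts of the pair in the saline libraries. In the treated libraries it held 14.0% (13.7 to 14.2%) and 3.12% (2.96 to 3.29%).

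The coding sequences of Lyz1 and Lyz2 are 444 bases long and identical at 422 positions, and 16.1% of the 50-base words of the Lyz1 transcript occur in Lyz2, so the split of reads between the 2 genes is uncertain. With the counts of both summed the log2 fold change was 1.20 (adjusted p = 0.157). Coding bases 37 to 156 are shown because they hold 14 of the 22 differences, which stand in capitals (GENCODE M21 transcripts, 5′ to 3′).
Lyz1: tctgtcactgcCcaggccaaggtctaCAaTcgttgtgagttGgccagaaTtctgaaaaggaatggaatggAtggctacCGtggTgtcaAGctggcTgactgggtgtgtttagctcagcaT
Lyz2: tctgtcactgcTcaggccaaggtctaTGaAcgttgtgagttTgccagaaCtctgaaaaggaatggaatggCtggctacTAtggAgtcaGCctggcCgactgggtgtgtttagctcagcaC

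None of the 10 genes passed an adjusted p of 0.05 in edgeR's quasi-likelihood test, and none of the 15167 genes tested did (0%). At an unadjusted p under 0.05 there were 9 of the 10, all 9 higher after treatment, against 9.21% of all genes on the higher side. With DESeq2 the 9 became 4, against 2956 of all 15167 genes in either direction. Each of the 9 had a smaller fitted log2 fold change without cmLumiOpto/PARPi replicate 1, and also without saline replicate 2. Abca3 was not among the 9, and on the lower side 12.0% of all genes had an unadjusted p under 0.05. At an adjusted p under 0.05 DESeq2 called 1 of the 10 genes (Napsa), against 6.47% of all genes. EdgeR's likelihood ratio test called 4 (Sftpc, Sftpd, Lamp3 and Napsa), against 5.7% of all genes. Without the filter on low counts, the quasi-likelihood test called 9, all but Abca3, against 7.86% of the 25435 genes then tested. The median log2 fold change of the 10 was 2.05, against 0.02 over all genes tested. In 5 of the 10 (Sftpa1, Sftpc, Sftpd, Lamp3 and Napsa) the group means differed by a larger factor than the replicates of either group. For Sftpa1 the margin was small, 4.02-fold between group means against 3.84-fold between the saline libraries. The share of all genes tested that meet this criterion was not computed. With 2 libraries against 2, an exact permutation test of a single gene cannot give a two-sided p below 0.333.

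**Figure D2:**
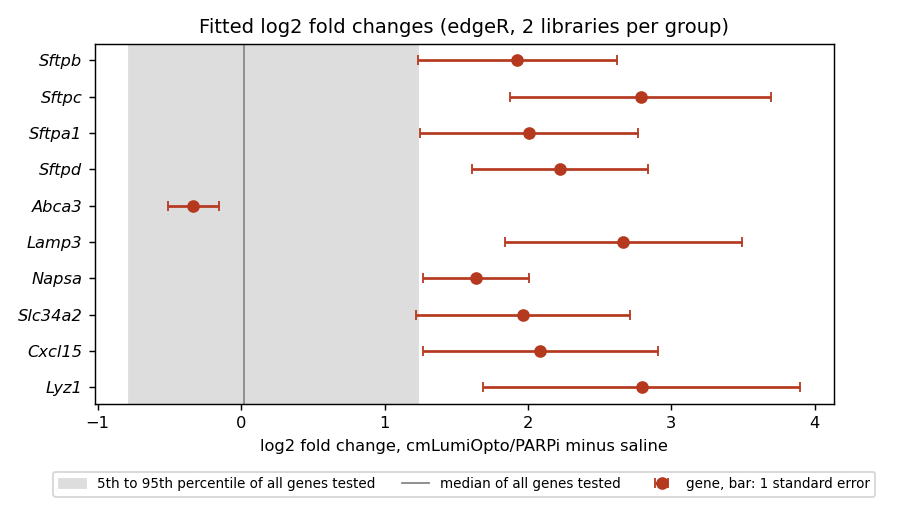
Fitted log2 fold change of each gene (cmLumiOpto/PARPi minus saline, edgeR) with 1 standard error, beside the range from the 5th to the 95th percentile of all genes tested (-0.78 to 1.23) and their median. Of the 10 genes, 9 have point estimates to the right of the range and Abca3 lies inside it.

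The spread between libraries of a group was wide for these genes. Their median absolute log2 difference between the 2 saline libraries was 2.02, and between the 2 treated libraries 1.48, compared with 0.24 and 0.25 over all genes tested. The order of treated replicate 1, treated replicate 2, saline replicate 1 and saline replicate 2, from high to low, held in 8 of the 10 genes and in 10.9% of all genes tested. Lyz1 and Abca3 departed from it. The fitted log2 fold changes depended on single libraries accordingly. For the 9 genes with higher means they were lowest without cmLumiOpto/PARPi replicate 1 and highest without saline replicate 1. They ran from 0.97 to 3.26 for Sftpa1, 1.21 to 3.22 for Sftpb, 1.80 to 4.53 for Sftpc and 1.31 to 3.06 for Sftpd. For the other genes they ran from 1.52 to 4.10 (Lamp3), 1.14 to 2.06 (Napsa), 1.06 to 3.33 (Slc34a2), 1.15 to 3.72 (Cxcl15) and 0.71 to 4.40 (Lyz1). Without saline replicate 2 the log2 fold change was 1.24 for Sftpb, 1.32 for Sftpa1, 1.26 for Slc34a2 and 1.32 for Cxcl15. Abca3 ran from -0.55 without cmLumiOpto/PARPi replicate 1 to -0.17 without replicate 2.

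Per length, Sftpc was the leading transcript in every library, with 986 and 170 CPM per kilobase of gene length after saline and 5951 and 2023 after cmLumiOpto/PARPi. Averaged over the 4 libraries, Sftpb (154 CPM per kilobase) and Lyz1 (151) came next, then Sftpa1 (88.8), Sftpd (43.8), Cxcl15 (34.9), Slc34a2 (23.3), Napsa (22.7), Abca3 (13.2) and Lamp3 (11.5). That order is set mostly by the treated libraries and does not hold in each one. Lyz1 owed its place to cmLumiOpto/PARPi replicate 1 (466 CPM per kilobase, against 12.4 to 63.7 in the others). In saline replicate 2 Abca3 stood at 13.8 CPM per kilobase, above Lyz1 and Sftpd (8.57). Sftpc exceeded each of the other 9 genes in every library, and neighbours among those 9 differed by less than the range of the higher gene over the libraries.

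The make-up of the counts also differed between libraries. Sftpc accounted for 55.2% of the summed counts of the 10 genes in saline replicate 1 (95% Wilson interval 54.7 to 55.8%) and 36.1% in saline replicate 2 (34.9 to 37.2%). It accounted for 67.7% (67.4 to 67.9%) and 67.2% (66.7 to 67.6%) in the treated libraries. Abca3 accounted for 7.95% (7.64 to 8.26%) and 26.4% (25.4 to 27.4%) in the saline libraries, and for 1.37% (1.31 to 1.43%) and 3.02% (2.88 to 3.17%) in the treated libraries. The ratio of Sftpc to Sftpb counts was 4.93 and 3.36 after saline and 8.98 and 6.94 after treatment, and was higher in both treated libraries than in either saline library.

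**Figure D3:**
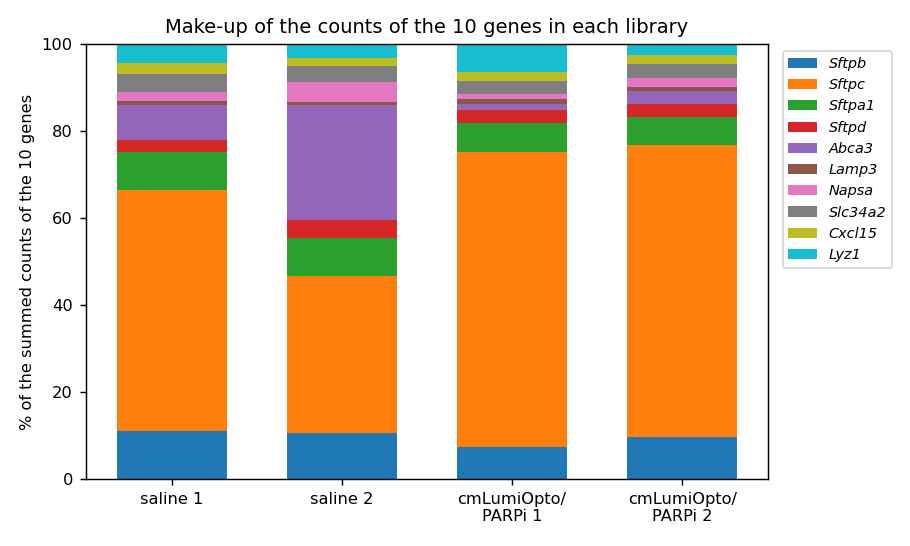
Share of each gene in the summed counts of the 10 genes, as stacked bars that reach 100%, in each of the 4 libraries. Sftpc (orange) is the largest share in every library, and Abca3 (purple) takes 26.4% in saline replicate 2 and at most 7.95% in the others.

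Regulators of AT2 cells lay on both sides. Of 16 regulators listed, all 16 were tested and none passed an adjusted p of 0.05. At an unadjusted p under 0.05 there were 3 higher, Nkx2-1 and Elf5 among them, and 6 lower. The shares over all genes tested were 9.21% higher and 12.0% lower. The median log2 fold change of the regulators was -0.13. Nkx2-1, the master regulator of lung epithelium, had 6.96 and 1.98 CPM after saline and 25.5 and 11.3 CPM after cmLumiOpto/PARPi. The log2 difference of 2.04 ± 0.66 (SE; adjusted p = 0.182) lay within the 1.93 to 2.79 spanned by the 4 surfactant protein genes. Elf5, an epithelial factor, lay 1.91 higher on the log2 scale after treatment (adjusted p = 0.168), at a low level of at most 5.47 CPM. Nfib, a factor of lung maturation found in many cell types, had 242 and 255 CPM after saline and 182 and 168 CPM after treatment (log2 fold change -0.51, adjusted p = 0.146). Sox9, a factor of the embryonic distal tip, and Fgfr2, the FGF receptor through which AT2 cells are maintained, were lower in both treated libraries too. Their log2 fold changes were -0.66 (adjusted p = 0.145) and -1.30 (adjusted p = 0.138). Fgfr2 had 151 and 213 CPM after saline and 80.2 and 67.6 CPM after treatment. It was thus highest in saline replicate 2, where most of the surfactant and AT2 genes were lowest. Which cells of the tissue the regulator transcripts came from was not tested.

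Enzymes that make surfactant lipid did not follow the surfactant proteins. Of 25 listed genes of lipid synthesis and the lamellar body, 24 were tested and none passed an adjusted p of 0.05. At an unadjusted p under 0.05 there were 3 higher and 7 lower, against 9.21% and 12.0% of all genes tested. The median log2 fold change of the list was -0.06. Lpcat1, which remodels the phosphatidylcholine of surfactant, had 100 and 77.8 CPM after saline and 182 and 128 CPM after cmLumiOpto/PARPi (log2 fold change 0.80, adjusted p = 0.156). Ctsh, a protease that acts with napsin A on surfactant protein precursors, and Fabp5, a fatty acid binding protein, had log2 fold changes of 0.93 (adjusted p = 0.138) and 0.81 (adjusted p = 0.143). On the lower side the genes with the smallest p were Fasn, Acaca and Lpin1. Fasn, the fatty acid synthase, had 633 and 533 CPM after saline and 312 and 295 CPM after treatment (log2 fold change -0.94, adjusted p = 0.138). Acaca, which makes malonyl-CoA for it, and Lpin1, a phosphatidate phosphatase, had log2 fold changes of -0.90 and -1.17 (adjusted p = 0.138 for both). Other lipid genes overlapped between the groups, among them Scd1, a fatty acid desaturase (0.32, adjusted p = 0.689), and Elovl1, a fatty acid elongase (0.38, adjusted p = 0.379), both chosen after their values were seen. Most cells use these enzymes, tumour cells included, and their source in the tissue was not tested.

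Genes of surfactant uptake and clearance had a median log2 fold change of 0.10. All 12 listed were tested and none passed an adjusted p of 0.05. At an unadjusted p under 0.05 there were 0 higher and 2 lower, against 9.21% and 12.0% of all genes tested. The 2 lower genes were Csf2rb and Csf2rb2, which encode the beta chains of the GM-CSF and IL-3 receptors. Their log2 fold changes were -0.43 (adjusted p = 0.200) and -0.52 (adjusted p = 0.178). Cd36, a scavenger receptor, had 46.5 and 12.6 CPM after saline and 141 and 40.8 CPM after treatment, so its groups overlapped (log2 fold change 1.62, adjusted p = 0.283). Abca1, a cholesterol exporter, Pla2g15, a lysosomal phospholipase of alveolar macrophages, and Adgrf5, a receptor on AT2 cells that limits the surfactant pool, had log2 fold changes of -0.39 (adjusted p = 0.348), 0.52 (adjusted p = 0.363) and 0.36 (adjusted p = 0.310).

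Among 20 other AT2 genes, 17 passed the filter on low counts. None passed an adjusted p of 0.05, and 11 were higher and 1 lower at an unadjusted p under 0.05, against 9.21% and 12.0% of all genes. The median log2 fold change of the 17 was 1.86. In 14 of the 17 the groups did not overlap and treatment was higher, against 27.4% of all genes. Muc1, an epithelial mucin, had 31.8 and 19.8 CPM after saline and 119 and 67.7 CPM after cmLumiOpto/PARPi (log2 fold change 1.86, adjusted p = 0.138). Hc, which encodes complement C5, lay 2.99 higher on the log2 scale after treatment (adjusted p = 0.154), the largest difference among the 17. Etv5, a factor downstream of FGF signalling in AT2 cells, and Il33, an alarmin, were the exceptions, with log2 fold changes of -0.40 (adjusted p = 0.188) and -0.50 (adjusted p = 0.281). Lpcat1 and Ctsh belong to this list as well.

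The 6 genes whose log2 CPM, centred over the 4 libraries, lay nearest to the mean of the 10 genes were Ifit3 (Euclidean distance 0.16), Chil1 (0.17), Sec14l3 (0.17), Nkx2-1 (0.24), Mal2 (0.27) and Mgl2 (0.29). They were drawn from 10040 genes with a mean of at least 10 CPM, and 4 libraries are few points for such a likeness. Chil1, a chitinase-like protein of AT2 cells, had 67.5 and 17.04 CPM after saline and 241 and 91.1 CPM after treatment. The others are an interferon-induced gene (Ifit3), an airway lipid-binding gene (Sec14l3), an epithelial membrane trafficking gene (Mal2) and a macrophage lectin gene (Mgl2). Among the 10 genes themselves the distance from their own mean ran from 0.17 for Sftpa1 to 2.76 for Abca3.

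**Figure D4:**
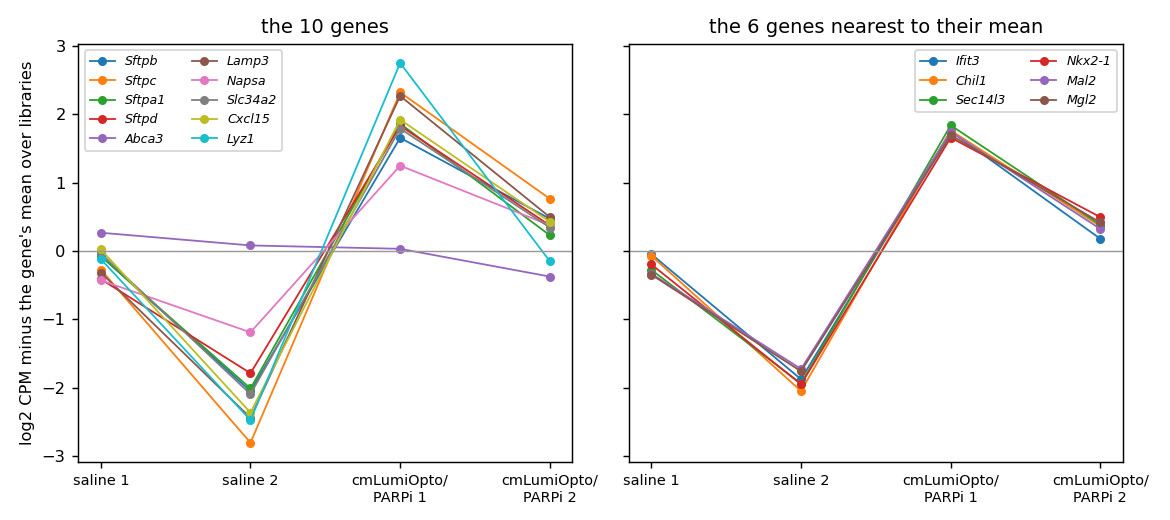
Log2 CPM of each gene minus its mean over the 4 libraries, for the 10 genes (left) and for the 6 genes nearest to their mean (right). Lines join the values of 1 gene and mark no order in time. Abca3 runs almost level, between -0.38 and 0.27, while the others dip in saline replicate 2 and peak in cmLumiOpto/PARPi replicate 1.

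Markers of other lung cells were also higher after treatment in part, and their part in the AT2 result was not tested. No gene of any cell type list passed an adjusted p of 0.05. Of 10 club and airway secretory genes, all tested, 9 lay higher in both treated libraries, against 27.4% of all genes. The summed level of the club and airway list was 1197 and 108 CPM after saline and 5934 and 3279 CPM after cmLumiOpto/PARPi. Scgb1a1, the secretoglobin that defines club cells, had 1088 and 74.7 CPM after saline and 5305 and 2794 CPM after treatment (log2 fold change 2.80, adjusted p = 0.235), and Cyp2f2, a club cell cytochrome, lay 2.92 higher on the log2 scale after treatment (adjusted p = 0.205). All 8 ciliated cell genes lay higher in both treated libraries, against the same 27.4% of all genes. The ciliated list summed to 37.4 and 14.0 CPM after saline and 176 and 77.0 CPM after treatment. The leading ciliated list genes, Sec14l3 and Tppp3, had log2 fold changes of 2.17 (adjusted p = 0.174) and 2.59 (adjusted p = 0.138). Club cells express Sftpb, Sftpa1 and Sftpd too, so for these 3 genes the AT2 and airway contributions cannot be told apart.

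AT1 genes differed less as a list, with a median log2 fold change of 0.83, although some differed about as much as the AT2 genes. Of 12 AT1 genes, all tested, 7 lay higher in both treated libraries and 0 lower, against 27.4% and 27.8% of all genes. The AT1 list summed to 940 and 725 CPM after saline and 1667 and 1052 CPM after treatment. Ager, the receptor that marks AT1 cells, had 136 and 47.6 CPM after saline and 474 and 225 CPM after treatment (log2 fold change 1.93, adjusted p = 0.166). Emp2 lay 0.08 higher on the log2 scale after treatment (adjusted p = 0.771). Among AT1 genes named after their values were seen, Hopx and Aqp5 lay at 1.79 (adjusted p = 0.142) and 1.73 (adjusted p = 0.163). Lmo7 and Igfbp2, named likewise, lay at 0.05 (adjusted p = 0.872) and 0.04 (adjusted p = 0.973). Of 10 endothelial genes 4 lay higher in both treated libraries, against 27.4% of all genes, and all 10 had log2 fold changes above 0 (median 0.63), at sums of 570 and 450 CPM against 894 and 519 CPM. The most abundant, Pecam1 and Cdh5, had log2 fold changes of 0.38 (adjusted p = 0.407) and 0.01 (adjusted p = 0.987). Gpihbp1 and Car4, capillary genes named after their values were seen, lay at 1.13 (adjusted p = 0.142) and 1.501 (adjusted p = 0.145).

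In the fibroblast list 6 of 8 genes lay lower in both treated libraries, against 27.8% of all genes tested, and 2 higher, against 27.4%. The list summed to 5581 and 4178 CPM after saline and 2421 and 2362 CPM after treatment. Col1a1 and Col3a1, fibrillar collagen genes with the highest CPM of the list, had log2 fold changes of -1.74 and -1.06 (adjusted p = 0.138 for both). The 2 higher genes were Tcf21, a transcription factor of lung lipofibroblasts (log2 fold change 2.61, adjusted p = 0.184), and Inmt, a methyltransferase. Inmt had 65.0 and 12.7 CPM after saline and 421 and 107 CPM after treatment (2.76, adjusted p = 0.188), in the same order over the libraries as most of the AT2 genes. Of the keratins and other tumour epithelial genes, 0 of 7 tested lay higher and 1 lower in both treated libraries, against the same 27.4% and 27.8%. Their sums of 3011 and 3390 CPM after saline and 2692 and 3850 CPM after treatment overlapped. Krt8 and Krt18, which 4T1 cells and lung epithelium both express, had log2 fold changes of -0.04 (adjusted p = 0.959) and 0.06 (adjusted p = 0.928). The cell type label names TNBC, yet markers of lung epithelium such as Sftpc and Scgb1a1 were detected in every library.

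For blood and immune cells the sums of the marker lists overlapped between the groups, except for the macrophage list. Of 10 macrophage and monocyte genes, 2 lay higher and 1 lower in both treated libraries, against 27.4% and 27.8% of all genes tested. The 10 genes of that list summed to 3610 and 2822 CPM after saline and 5563 and 3971 CPM after treatment. Lyz2, which AT2 cells also express, dominates that sum (log2 fold change 1.10, adjusted p = 0.148), and C1qa lay 0.12 higher on the log2 scale after treatment (adjusted p = 0.789). Alveolar macrophage genes, 10 of 11 of which were in the table, summed to 200 and 565 CPM after saline and 185 and 229 CPM after treatment. That sum is mostly Chil3, whereas the median log2 fold change of the 7 genes tested was 0.60, with 5 of them above 0. Their most abundant genes Chil3 and Plet1 had log2 fold changes of -1.43 (adjusted p = 0.243) and -0.42 (adjusted p = 0.493), while Ear2, a ribonuclease gene named after its values were seen, lay at 1.19 (adjusted p = 0.182). Neutrophil genes summed to 1347 and 551 CPM against 821 and 1659 CPM, led by S100a9 (log2 fold change 0.53, adjusted p = 0.547) and S100a8 (0.37, adjusted p = 0.720). Red cell genes summed to 1113 and 356 CPM against 989 and 1239 CPM, led by Hbb-bs (0.77, adjusted p = 0.415) and Hba-a1 (0.25, adjusted p = 0.80). Genes of pulmonary vein cardiac muscle summed to 102 and 92.7 CPM against 67.9 and 156 CPM, almost wholly from Tnnt2 (0.13, adjusted p = 0.874), with Myl4 at a log2 fold change of 0.81 (adjusted p = 0.333). No listed gene was at 0 in all 4 libraries.

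**Figure D5:**
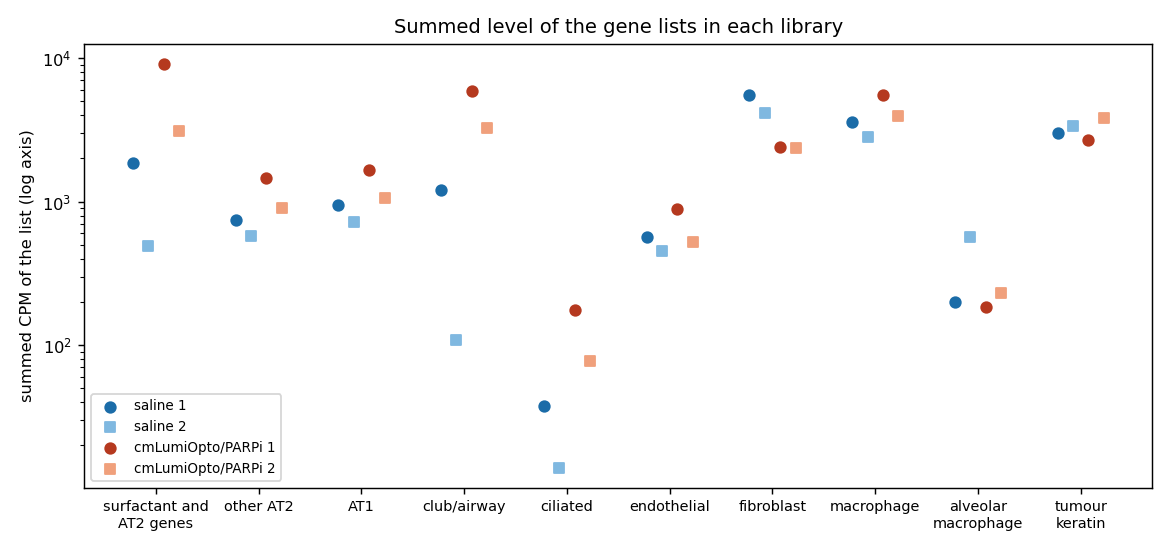
Summed CPM (log axis) of the 10 surfactant and AT2 genes and of the marker lists of other cells in each library, with saline in blue and cmLumiOpto/PARPi in red and orange. Saline replicate 2 has the lowest sum of the 10 genes and of the other AT2, AT1, club, ciliated, endothelial, and macrophage and monocyte lists. The fibroblast sums, mostly collagen, are higher in both saline libraries, and the tumour keratin sums overlap between the groups.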

How the data were processed

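The table deposited by the authors holds raw read counts per gene, without normalization, from reads aligned by HISAT2. The counter, the annotation release and the strand setting are not given in the sources used here. The methods name GRCm38, the submitters' processing notes name mm39, and 2.83% of 52073 genes matched by Ensembl identifier had the same position in GENCODE M21 (GRCm38) although 96.8% had the same span, so positions are those of GENCODE M21.

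Counts were tested with edgeR 4.0.16 in R 4.3.3 (filterByExpr with a minimum count of 10, TMM, glmQLFit with the defaults of that version, glmQLFTest, Benjamini-Hochberg adjustment over all 15167 genes, threshold 0.05). The standard error is the log2 fold change divided by the square root of F. CPM used TMM factors, and log2 CPM a prior count of 2. Promoters came from RefSeq, and coding sequences were read from GENCODE with Biopython 1.88. The test was checked on simulated counts. DESeq2 1.42.0 and other settings served as alternatives.

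The members and lists were chosen with earlier results of these data known. Named genes were the 10 members, Lyz2, up to 3 genes in each direction with the smallest p of each pathway list and of the other AT2 genes, the 2 most abundant genes of each cell type list, and the 6 genes of nearest pattern. A gene that this rule names among the regulators is not reported here. Nothing states that same-numbered libraries share an animal or batch, and nothing says that libraries of a group are separate cultures or animals, so p-values measure only the spread between these samples, which may be technical. Within a group the libraries were not duplicates of each other. A chi-square test of counts gave 25.2 per degree of freedom between the saline libraries and 45.4 between the treated ones. Pairs across the groups were not put to this test. Totals of 15263375 to 16755228 counts set the precision.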

Additional observations from a re-analysis of the deposited data

How the results depend on the processing

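The direction of all 10 genes was kept under every alternative except the scale relative to their own sum, and their calls were not. Of 10 genes, 0 were called with other normalizations, with a filter of at least 1 CPM in at least 2 libraries, without the legacy option of edgeR, or without any 1 library. Without the filter on low counts 9 of the 10, 67 genes of the other lists and 2000 of all 25435 genes (7.86%) were called. DESeq2 called 1, 36 and 981 (6.47% of all genes), and the likelihood ratio test 4, 40 and 865 (5.7%). The causes were not tested. Without 1 library in turn, 0 to 31 of all genes and 0 to 6 of the list genes were called, with the lone sample of a group assumed to vary like the others. The log2 fold change of Sftpc ranged from 1.80 (without cmLumiOpto/PARPi replicate 1) to 4.53 (without saline replicate 1), and that of Lyz1 from 0.71 to 4.40. With all 4 libraries the count of members without overlap was 8 or 9. In the main setting 27.4% of all genes tested were higher and 27.8% lower without overlap. Without 1 library, a lone sample separates from 2 others more easily, so counts without overlap are not comparable there.

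Same-numbered libraries deviated together across genes (Spearman's rho = 0.298, over genes, which are not independent replicates), but share only a number in the labels. With the replicate number as a block, 9 of the 10 genes (Abca3 excepted), 62 list genes and 1822 of all genes, 12.0%, were called.

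Relative to the summed counts of the 10 genes, the log2 difference was -2.83 for Abca3, 0.60 for Sftpc and between -0.86 and 0.30 for the other 8, a scale whose zero is set mostly by Sftpc. With 2 libraries per group, the spread between them limits the comparisons.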
